A study of Mus musculus with 46 samples.

Results

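The 9 genes described here, Tert, Dkc1, Terf1, Terf2, Tinf2, Acd, Pot1a, Pot1b and Rif1, code for proteins of telomerase and of the telomere. They were chosen by name, and all 9 were found among the 37108 genes of the gene-level expression table (34 libraries) and among the 35976 symbols of the transcript-level table (15 libraries). The RNA-seq libraries followed the reprogramming of mouse embryonic fibroblasts (MEF) into induced pluripotent stem cells (iPSC). The MEF came from mid-gestation embryos of OG2 mice, which carry an Oct4-GFP reporter, crossed to 129 mice. Cells carried retroviral Oct4 with either native Nanog (Nanog+Oct4 in the labels, NanogWT below) or Nanog fused to an N-terminal stretch of SS18 that binds BRG1, the ATPase of the BAF chromatin remodelling complex (NanogN70+Oct4, NanogBiD below), so every time-course group shared Oct4. D0 was taken after 2 rounds of infection, the cells then grew in iCD3 medium and, from about D7, in N2B27 with 2i and LIF (2iL). The time course held 31 libraries on 8 days from D0 to D12, with 2 per combination and day and 1 for NanogBiD at D8. It was set beside 2 MEF libraries without factors, 1 library of OG2 mouse embryonic stem cells (mES) and 12 iPSC libraries kept in 2iL, 6 from each combination. The iPSC samples are numbered and bear the names iPSC1 or iPSC2, each used for both combinations. These names are called lines below, although the labels do not say what they stand for. The headers put a later passage on iPSC1 than on iPSC2, so the effect of a line cannot be told apart from that of its passage.

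Telomerase adds telomeric repeats to chromosome ends. TERT is its reverse transcriptase, and dyskerin, the product of Dkc1, binds and stabilises the RNA component Terc. Shelterin is the complex that covers the repeats: TRF1 (Terf1) and TRF2 (Terf2) bind the double-stranded repeats, TIN2 (Tinf2) bridges them, and TPP1 (Acd) joins TIN2 to the POT1 proteins, which bind the single-stranded overhang. Mice carry 2 POT1 genes, Pot1a and Pot1b. RIF1 acts in replication timing and in the choice of repair pathway and was first known from telomeres of yeast. Pluripotent stem cells of the mouse are known for active telomerase, which most adult somatic cells hold at a low level.

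In the mm10 genome (GRCm38.p6, RefSeq), Tert lies at chr13:73626911-73649843, Dkc1 at chrX:75095854-75109776, Terf1 at chr1:15805546-15844052, Terf2 at chr8:107069400-107096548, Tinf2 at chr14:55676208-55682159, Acd at chr8:105698155-105701228, Pot1a at chr6:25743940-25809277, Pot1b at chr17:55651190-55712647 and Rif1 at chr2:52072815-52126769. Tinf2 overlaps Gmpr2, Dkc1 overlaps Mpp1, Terf2 overlaps Mir7075, and Acd overlaps Carmil2 and Pard6a. Strand use in counting is not given in the sources used here, so reads of these 4 genes and of their overlapping partners could have been shared.

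RefSeq held a promoter for 7 of the 9 genes, and those of Tert, Dkc1, Pot1a and Pot1b are shown because Tert and Dkc1 are the telomerase pair and Pot1a and Pot1b are paralogs whose levels diverged. Each run is the 250 bases before the start on the gene's own strand, 5′ to 3′, and capitals mark GGGCGG (the GC box) or CCAAT on either strand:
Tert, chr13:73626661-73626910, plus strand: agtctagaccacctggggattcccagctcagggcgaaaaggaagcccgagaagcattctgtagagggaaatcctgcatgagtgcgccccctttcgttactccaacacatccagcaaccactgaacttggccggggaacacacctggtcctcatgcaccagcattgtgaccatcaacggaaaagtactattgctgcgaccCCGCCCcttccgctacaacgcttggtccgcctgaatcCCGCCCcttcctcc
Dkc1, chrX:75095604-75095853, plus strand: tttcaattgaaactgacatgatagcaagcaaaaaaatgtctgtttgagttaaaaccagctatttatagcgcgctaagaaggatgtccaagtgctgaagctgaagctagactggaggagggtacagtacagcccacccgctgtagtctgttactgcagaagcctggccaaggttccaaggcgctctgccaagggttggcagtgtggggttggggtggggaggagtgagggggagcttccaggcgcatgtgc
Pot1a, chr6:25809219-25809468, minus strand: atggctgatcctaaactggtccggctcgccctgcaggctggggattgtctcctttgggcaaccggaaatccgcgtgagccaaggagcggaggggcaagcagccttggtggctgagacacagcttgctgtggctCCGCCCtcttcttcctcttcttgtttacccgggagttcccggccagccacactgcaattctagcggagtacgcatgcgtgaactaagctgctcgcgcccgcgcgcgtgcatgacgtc
Pot1b, chr17:55712625-55712874, minus strand: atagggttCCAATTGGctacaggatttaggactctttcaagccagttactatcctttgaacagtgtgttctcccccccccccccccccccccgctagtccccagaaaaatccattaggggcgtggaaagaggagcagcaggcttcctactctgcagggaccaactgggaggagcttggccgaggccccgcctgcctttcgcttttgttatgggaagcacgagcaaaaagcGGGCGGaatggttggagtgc
The Tert stretch held 2 GC boxes, whose first bases lay 51 and 14 bases before the start, and the Pot1a stretch held 1, at 117 bases. The Pot1b stretch, from the first of its 2 RefSeq start entries by position, held 1 GC box, at 20 bases, and 2 CCAAT boxes, while neither motif was in the Dkc1 stretch. Of 32851 promoter stretches of this length, 32.7% held a GC box and 33.8% a CCAAT box. The E-box CACGTG (6.02% of the stretches) and the octamer ATGCAAAT (1.6%) were searched on both strands too and were in none of the 7 genes' stretches.

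In the reference cells, all 9 genes stood higher in mES than in both MEF libraries, though the share of all genes that did so was not computed. Values are FPKM, fragments scaled to the length of the gene model and to the mapped fragments of the library, so levels can be set side by side between genes. In mES the order was Dkc1 (67.2 FPKM), Rif1 (25.6), Acd (24.9), Terf1 (22.6), Tinf2 (15.9), Pot1a (13.5), Terf2 (10.9), Tert (3.56) and Pot1b (0.733), in a single library, so no spread can be given. In MEF the order was different: the means ± SD of 2 libraries were 17.4 ± 5.80 FPKM for Dkc1, 13.0 ± 5.03 FPKM for Acd, 6.47 ± 2.43 FPKM for Tinf2, 5.86 ± 0.298 FPKM for Terf2, 3.47 ± 0.0916 FPKM for Terf1, 3.05 ± 0.105 FPKM for Rif1, 2.76 ± 0.108 FPKM for Pot1a, 1.03 ± 0.136 FPKM for Tert and 0.391 ± 0.0395 FPKM for Pot1b. The neighbours Dkc1 and Acd had overlapping values in the 2 MEF libraries, as had Tinf2 and Terf2, while every other neighbouring pair did not overlap. The mES value was 8.40 times the MEF mean for Rif1, 6.52 times for Terf1, 4.88 times for Pot1a, 3.85 times for Dkc1 and 3.45 times for Tert, and between 1.86 and 2.46 times for the other 4. With 1 mES library these ratios have no test.

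Facts of the whole series touch these values. Replicate libraries correlated at 0.961 to 0.990 across genes (15 pairs), and the 10 fibroblast markers and 10 pluripotent markers listed for the check followed the labels: the pluripotent list summed to at most 1.502 FPKM in MEF and to 3776 FPKM in mES, and the fibroblast list to at least 6683 and to 193 FPKM. The fibroblast list includes genes that other mesenchymal cells express. From the steps between low FPKM values, the relative read depth (1 for the median library) was 0.996 to 1.10 in NanogBiD and 0.872 to 1.06 in NanogWT from D0 to D7, and 0.810 to 1.02 against 1.85 to 3.18 from D8 on, so from D8 depth and combination cannot be told apart. The depth of the transcript table is unknown. The samples were bulk cultures, in which fewer cells of a type and less RNA per cell cannot be told apart. Nothing in the labels says that replicates were separate cultures, and p-values measure the spread between these samples, which may be technical.

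**Figure D1:**
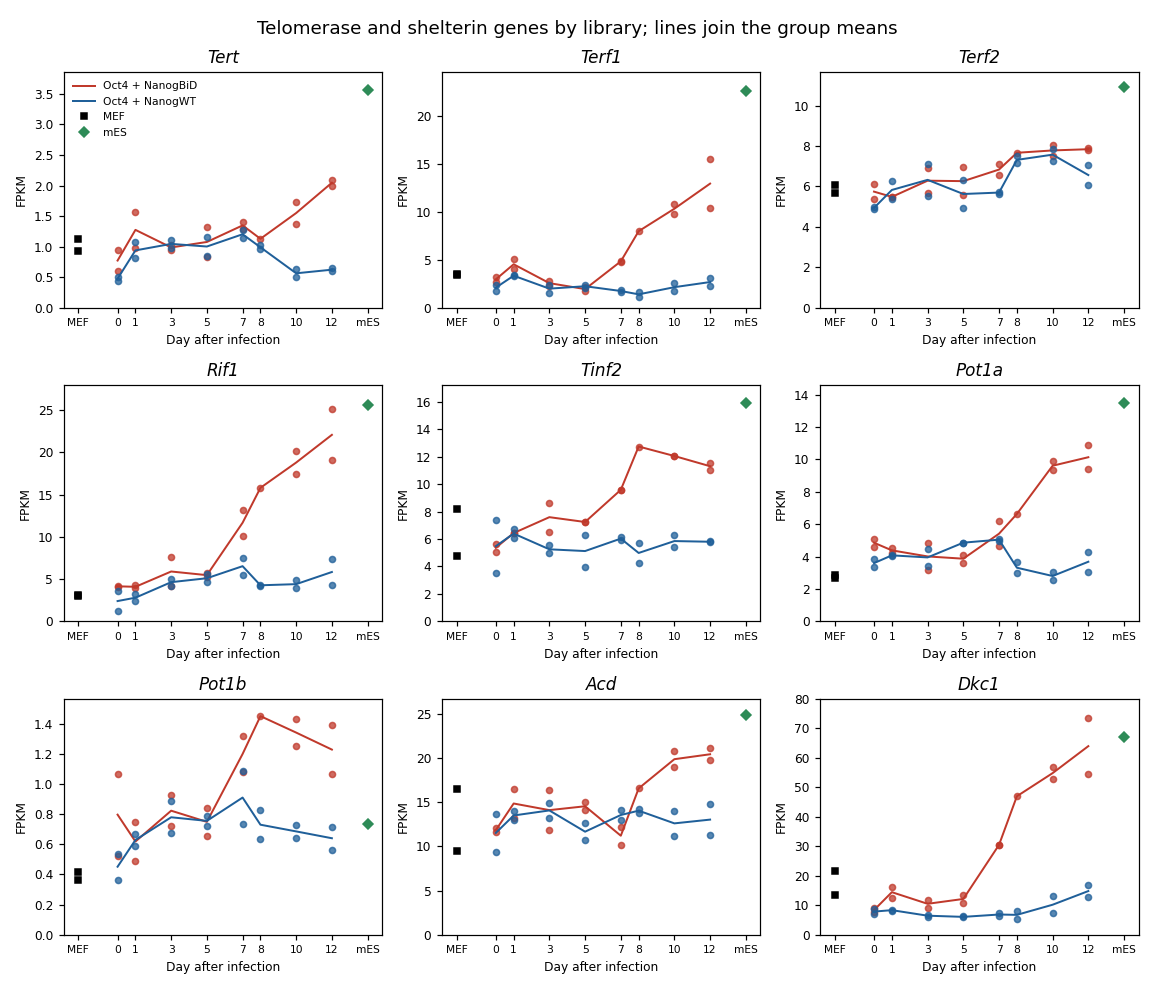
FPKM of the 9 genes by day (x axis) in single libraries (points) of the NanogBiD (red) and NanogWT (blue) combinations, with lines through the group means, the 2 MEF libraries at the left (squares) and the mES library at the right (diamond). At D12 the NanogBiD points lie above the NanogWT points in all 9 genes, by 4.84-fold of the means in Terf1 and 1.19-fold in Terf2. The share of all genes that do so was not computed.

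The study compared NanogBiD with NanogWT at each day. Up to D5 none of the 9 genes was called different. A call (limma) needed a Benjamini-Hochberg adjusted p under 0.05 over all 16842 genes tested. It also needed a log2 difference of log2(FPKM + 1) of at least 1. This 2-fold limit is set on FPKM + 1, so a gene can lie under it with a ratio of mean FPKM above 2. The share of all genes called in either direction was 0.76% at D0, 1.33% at D1, 3.7% at D3 and 6.48% at D5. At D0 none of the 9 passed the adjusted p at any size either, although both NanogBiD values lay above both NanogWT values in Tert (0.593 and 0.951 FPKM against 0.507 and 0.443), Pot1a (5.09 and 4.61 against 3.35 and 3.83), Rif1, Terf1 and Terf2. Pot1a, Rif1 and Terf1 did so again at D1, none with an adjusted p under 0.05. With n = 2 per group values can lie apart in this way without a true difference, and the share of all genes that did so was not computed. Leaving out NanogWT replicate 2 at D0 made 1 gene, Rif1, pass both limits, with 4.21 and 4.06 FPKM against 1.17 (3.60 in the library left out). Dkc1 was the single gene of the 9 to pass the adjusted p up to D5, and it did so at D5 (1524 of all 16842 genes tested passed it there as higher at any size). It overlapped between the groups at D0, then measured 12.6 and 16.3 FPKM with NanogBiD against 8.495 and 8.16 with NanogWT at D1 (adjusted p = 0.105) and 11.8 and 9.23 against 6.77 and 6.13 at D3 (adjusted p = 0.0952), without overlap on either day. At D5 it measured 10.9 and 13.4 FPKM with NanogBiD and 6.23 and 5.87 with NanogWT. The groups did not overlap, and the log2 difference of 0.89 ± 0.23 (SE, n = 2 per group) passed the adjusted p (0.00961) but not the 2-fold limit. Without NanogBiD replicate 1 it reached 1.03 and was called, and without NanogBiD replicate 2 (0.75, adjusted p = 0.109) or either NanogWT replicate it no longer passed the adjusted p.

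At D7, while the libraries were still at like depth, Dkc1 and Terf1 were called higher with NanogBiD, 2 of the 9 genes against 5.79% of all genes called higher. Dkc1 measured 30.4 and 30.6 FPKM with NanogBiD and 6.44 and 7.26 with NanogWT, a 4.45-fold difference of means. Its log2 difference was 2.01 ± 0.23 (SE, n = 2 per group, adjusted p = 1.82e-06). Terf1, the TRF1 gene, measured 4.83 and 4.86 FPKM against 1.60 and 1.89, a log2 difference of 1.09 ± 0.20 (adjusted p = 0.000344). For both genes the groups lay far apart and their replicates close together.

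Tinf2, the bridging subunit, passed the adjusted p at D7 under the 2-fold limit, with 9.59 and 9.60 FPKM against 5.89 and 6.17 (log2 difference 0.59 ± 0.22, adjusted p = 0.0465), which made 3 of 9 genes higher at any size against 17.3% of all genes. That result passed no more when any 1 of the 4 libraries was left out (adjusted p of 0.117 to 0.171). Rif1 measured 10.1 and 13.2 FPKM against 5.52 and 7.51, did not overlap, and had a log2 difference of 0.75 ± 0.29 (adjusted p = 0.0590). Tert measured 1.41 and 1.28 FPKM against 1.27 and 1.13, which the test could not part (log2 difference 0.09 ± 0.15, adjusted p = 0.711). Pot1a (4.62 and 6.20 FPKM against 5.10 and 4.98) and Pot1b (1.08 and 1.32 against 0.734 and 1.09) overlapped between the groups, with log2 differences of 0.07 ± 0.17 and 0.21 ± 0.15. Terf2 was higher in both NanogBiD libraries (7.11 and 6.55 FPKM against 5.75 and 5.64, 0.23 ± 0.14), and Acd was lower in both (12.3 and 10.2 FPKM against 14.1 and 13.0, -0.26 ± 0.18), but none of these 4 genes passed the adjusted p. The sign for Tert and Pot1a turned with quantile normalization, and for Pot1a also without NanogBiD replicate 2.

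At D8 NanogBiD had 1 library and no test was made. Its values were 47.0 FPKM for Dkc1, 15.8 for Rif1, 8.00 for Terf1, 12.8 for Tinf2 and 6.63 for Pot1a. The 2 NanogWT libraries measured 5.27 and 8.20 for Dkc1, 4.32 and 4.18 for Rif1, 1.17 and 1.62 for Terf1, 4.25 and 5.72 for Tinf2 and 2.96 and 3.66 for Pot1a, so all 5 genes were higher in the NanogBiD library than in either. Tert stood at 1.13 FPKM against 1.03 and 0.953, and Terf2 at 7.66 against 7.48 and 7.14, so in these 2 genes the gap was small. Acd stood at 16.6 FPKM against 13.8 to 14.3, and Pot1b at 1.45 against 0.633 to 0.827. The share of all genes higher in the NanogBiD library than in both NanogWT libraries was not computed.

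At D10 and D12 the same 4 genes, Dkc1, Terf1, Rif1 and Pot1a, were called higher with NanogBiD. The background was 15.4% of all genes called higher at D10 and 13.5% at D12. Dkc1 measured 56.99 and 52.7 FPKM at D10 and 73.6 and 54.4 at D12 with NanogBiD, and 7.34 and 13.0, then 12.8 and 16.8, with NanogWT. Its log2 difference was 2.37 ± 0.23 at D10 (adjusted p = 5.46e-08) and 2.04 ± 0.23 at D12 (adjusted p = 4.39e-07, n = 2 per group throughout). No NanogBiD value overlapped a NanogWT value on either day.

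Terf1 measured 10.9 and 9.82 FPKM at D10 and 15.5 and 10.4 at D12 with NanogBiD, and 1.71 and 2.58, then 2.30 and 3.07, with NanogWT. Its log2 difference was 1.86 ± 0.20 at D10 (adjusted p = 2.14e-07) and 1.91 ± 0.20 at D12 (adjusted p = 1.95e-07). At 4.84-fold between the means at D12, Terf1 had the largest ratio of the 9 genes on that day. Rif1 measured 20.1 and 17.5 FPKM at D10 and 25.1 and 19.1 at D12 against 3.94 and 4.83, then 4.29 and 7.36, with log2 differences of 1.88 ± 0.29 (adjusted p = 1.80e-05) and 1.78 ± 0.29 (adjusted p = 4.08e-05). Pot1a, the overhang-binding paralog, measured 9.90 and 9.32 FPKM at D10 and 9.39 and 10.9 at D12 against 2.53 and 3.06, then 3.06 and 4.29, with log2 differences of 1.49 ± 0.17 (adjusted p = 6.58e-07) and 1.26 ± 0.17 (adjusted p = 6.02e-06). In all 3 genes no NanogBiD value overlapped a NanogWT value.

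Tert itself was low throughout. At D10 it measured 1.73 and 1.37 FPKM with NanogBiD and 0.630 and 0.496 with NanogWT, and at D12 2.00 and 2.09 against 0.599 and 0.645. The groups did not overlap, the ratio of means was 2.75 at D10 and 3.29 at D12, and the log2 differences of 0.70 ± 0.15 (adjusted p = 0.000532) and 0.91 ± 0.15 (adjusted p = 4.81e-05) stayed under the 2-fold limit. The pseudocount of 1 weighs on a gene at this level: with a pseudocount of 0.1 the D12 log2 difference of Tert was 1.57.

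Tinf2, Acd and Pot1b also passed the adjusted p under the 2-fold limit on both days, which made 8 of 9 genes higher at any size at D10 (32.4% of all genes) and 8 of 9 at D12 (31.6%). At D10 Tinf2 measured 12.0 and 12.1 FPKM against 5.42 and 6.29 (log2 difference 0.93 ± 0.22, adjusted p = 0.0011), Acd 20.8 and 19.0 against 11.2 and 14.1, and Pot1b 1.25 and 1.43 against 0.729 and 0.643. No group overlapped in these 3 genes. At D12 Tinf2 measured 11.6 and 11.1 FPKM against 5.76 and 5.84 (log2 difference 0.86 ± 0.22, adjusted p = 0.00261). Acd, the TPP1 gene, measured 21.1 and 19.8 FPKM against 14.8 and 11.2 (0.62 ± 0.18, adjusted p = 0.00736). Pot1b measured 1.39 and 1.06 FPKM against 0.716 and 0.565 (0.44 ± 0.15, adjusted p = 0.0220). Without NanogWT replicate 2 at D12, Acd (0.44, adjusted p = 0.111) and Pot1b (0.37, adjusted p = 0.125) passed no more, nor did Pot1b without NanogBiD replicate 1 (0.33, adjusted p = 0.163). At D10 Acd passed no more without NanogWT replicate 1, nor Pot1b without replicate 2 of either group.

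Terf2 was the exception. At D10 it measured 7.51 and 8.05 FPKM with NanogBiD and 7.87 and 7.27 with NanogWT, which overlapped. At D12 it measured 7.88 and 7.80 against 7.03 and 6.09, a log2 difference of 0.23 ± 0.14 (adjusted p = 0.198). So the genes of the 2 double-strand binders TRF1 and TRF2 stood 4.84-fold and 1.19-fold apart between the combinations at D12. The median log2 difference over the 9 genes was 0.93 at D10 and 0.91 at D12, beside 0.10 and 0.17 over all genes.

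Other groups of genes moved on the same days. Of 10 proliferation genes, 7 were higher with NanogBiD at D7, 10 at D10 and 9 at D12, and 9 of 10 were higher in iPSC than in MEF. The list summed to 422 to 469 FPKM with NanogBiD and to 162 to 193 with NanogWT at D7, and to 640 to 725 against 208 to 235 at D12. The 10 fibroblast markers summed to 442 to 582 FPKM with NanogBiD and to 3502 to 4084 with NanogWT at D12, with all 10 called lower (4 at D7), and the 10 pluripotent markers to 1345 to 2372 against 174 to 251, with all 10 called higher (9 at D7). The 6 blood and endothelial markers summed to 19.2 and 32.3 FPKM with NanogBiD and to 3.75 and 4.20 with NanogWT at D12. Pecam1, which mES also express (47.4 FPKM), was the single one of the 4 tested that was called, and Ptprc was listed at 0 in both NanogBiD libraries. The part of these groups in the results for the 9 genes was not tested.

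**Figure D2:**
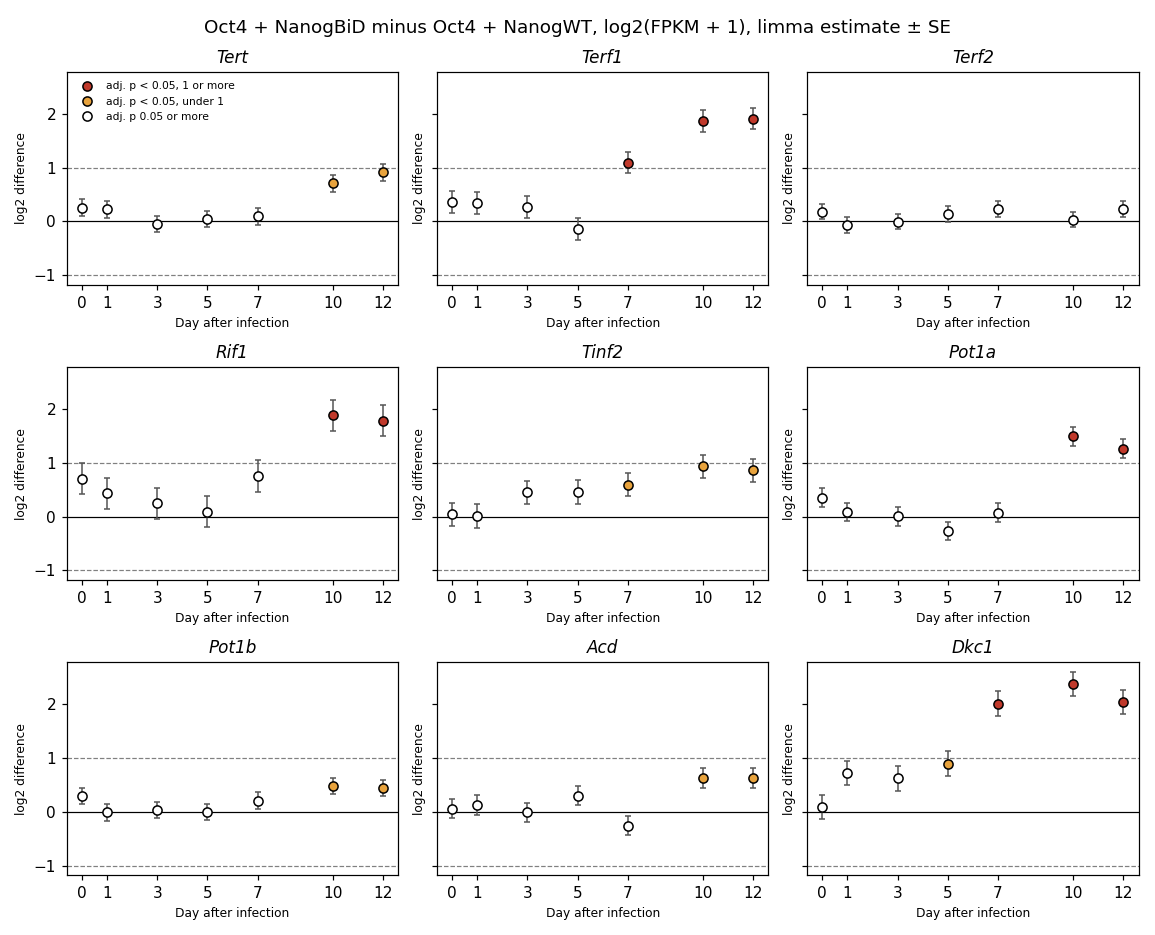
The log2 difference of log2(FPKM + 1), NanogBiD minus NanogWT, for each gene at the 7 days with 2 libraries per group, as the limma estimate with its SE, dashed lines marking the limit of 2-fold in FPKM + 1. Filled red points are called, orange points pass the adjusted p under that limit, and white points do not pass. Dkc1 is the earliest to turn red, at D7 with Terf1, and Terf2 stays white.

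Against their own D0, the NanogBiD libraries had risen in 2 of the 9 genes at D7 and in 3 at D12, against 12.7% and 24.6% of all genes called higher. Dkc1 went from 7.69 and 9.04 FPKM at D0 to 73.6 and 54.4 at D12, a 7.65-fold rise of the mean (log2 change 2.78 ± 0.23, adjusted p = 3.13e-09), of which 1.75 ± 0.23 was reached by D7 (adjusted p = 3.55e-06). Rif1 went from 4.21 and 4.06 FPKM to 25.1 and 19.1 (2.16 ± 0.29, adjusted p = 2.67e-06), with 1.29 ± 0.29 reached by D7 (adjusted p = 0.00121). Terf1 went from 2.67 and 3.26 FPKM to 15.5 and 10.4 (1.80 ± 0.20, adjusted p = 2.14e-07), and its D5 values, 2.19 and 1.70, lay below those at D0. At any size 5 of 9 genes had risen by D7, beside 5252 of all 16842 genes tested. By D12 it was 8 of 9, all but Pot1b, beside 42.8% of all genes.

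Tert went from 0.593 and 0.951 FPKM to 2.00 and 2.09, a 2.65-fold rise of the mean (log2 change 0.79 ± 0.15, adjusted p = 0.000143). With quantile normalization, which lowered the median change of all genes by 0.34, the Tert change was 0.17 (adjusted p = 0.339). By D7 the Tert log2 change with NanogBiD was 0.41 ± 0.15 (adjusted p = 0.0317), and 0.014 with quantile normalization (adjusted p = 0.964). The median log2 change of all genes from D0 to D12 was itself 0.34, and that of the 9 genes 0.93. Terf2 went from 5.36 and 6.12 FPKM to 7.88 and 7.80 (0.39 ± 0.14, adjusted p = 0.0233), which passed no more without NanogBiD replicate 1 at D0 or without either D12 library, and which was 0.0030 with quantile normalization (adjusted p = 0.996).

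With NanogWT, Rif1 was the single gene called at D7 (1 of 9, against 12% of all genes called higher) and at D12 (1 of 9, against 12.2%). It went from 1.17 and 3.60 FPKM at D0 to 5.52 and 7.51 at D7 (log2 change 1.24 ± 0.29, adjusted p = 0.00196) and to 4.29 and 7.36 at D12 (1.07 ± 0.29, adjusted p = 0.00622). The D0 replicates of Rif1 lay far apart, and without NanogWT replicate 1 at D0 the change was 0.70 at D7 (adjusted p = 0.0743) and 0.53 at D12 (adjusted p = 0.163). The D12 call was also lost without NanogWT replicate 2 at D12 (0.74, adjusted p = 0.112), and 2 genes were called without NanogWT replicate 1 at D12. At any size 3 of 9 genes had risen with NanogWT by D7 (25.5% of all genes) and 2 of 9 by D12 (27.4%). The second one at D12 was Dkc1, from 8.78 and 6.91 FPKM at D0 to 12.8 and 16.8 (log2 change 0.83 ± 0.23, adjusted p = 0.00652), which passed no more without replicate 2 of either day. At D7 the others were Pot1b, from 0.364 and 0.539 FPKM to 0.734 and 1.09 (0.39 ± 0.15, adjusted p = 0.0489), and Tert. Pot1b passed no more without replicate 1 of D0 or replicate 2 of D7. Tert with NanogWT stood at 0.507 and 0.443 FPKM at D0, 1.27 and 1.13 at D7 (log2 change 0.58 ± 0.15, adjusted p = 0.00442) and 0.599 and 0.645 at D12, so its D7 values lay above those of both other days. Pot1a measured 3.35 and 3.83 FPKM at D0, 5.10 and 4.98 at D7 and 3.06 and 4.29 at D12, and its change to D7 did not pass (adjusted p = 0.0789).

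The difference between the combinations in the change from D0 was tested as an interaction. At D7 it was called for Dkc1 (1.92 ± 0.32, adjusted p = 0.000363), 1 of 9 genes against 5.2% of all genes called higher. At D12 it was called for Dkc1 (1.95 ± 0.32, adjusted p = 9.67e-05), Terf1 (1.55 ± 0.28, adjusted p = 0.000267) and Rif1 (1.08 ± 0.41, adjusted p = 0.0447), 3 of 9 genes against 13.4%. The Rif1 value was lost without either NanogBiD library of D0, without NanogBiD replicate 1 or NanogWT replicate 1 of D12, and without NanogWT replicate 2 of D0, with values of 0.54 to 1.10 and adjusted p of 0.0831 to 0.261. Pot1a (0.91 ± 0.25, adjusted p = 0.00672), Tinf2 (0.82 ± 0.31, adjusted p = 0.0423) and Tert (0.65 ± 0.21, adjusted p = 0.0214) passed the adjusted p at D12 under the 2-fold limit. That made 6 of 9 genes in all at any size against 21.9% of all genes. Each of these 3 genes passed no more under some other processing, as given in the closing section. Tinf2 passed no more without any 1 of 7 of the 8 libraries, and Tert without any 1 of 4.

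Set between MEF at 0% and mES at 100% on the log2(FPKM + 1) scale, the NanogBiD libraries at D12 reached 95.6% ± 15.7 (SD, n = 2) for Dkc1, 91.9% ± 9.8 for Rif1, 80.4% ± 7.1 for Pot1a, 70.8% ± 6.65 for Acd, 67.4% ± 15.7 for Terf1, 62.3% ± 3.4 for Tinf2, 50.2% ± 2.6 for Tert and 46.0% ± 1.2 for Terf2. NanogWT at D12 lay at 26.3% for Rif1, 17.3% for Terf2, 15.5% for Pot1a and 4.4% for Acd, and below the MEF level for Tinf2 (-7.9%), Dkc1 (-10.3%), Terf1 (-12.0%) and Tert (-27.7%). Pot1b was left out, since MEF and mES were too close in it. At D0 both combinations lay below MEF for Dkc1, at -49.2% ± 7.7 and -53.7% ± 11.3. These positions rest on 1 mES library and are a description.

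**Figure D3:**
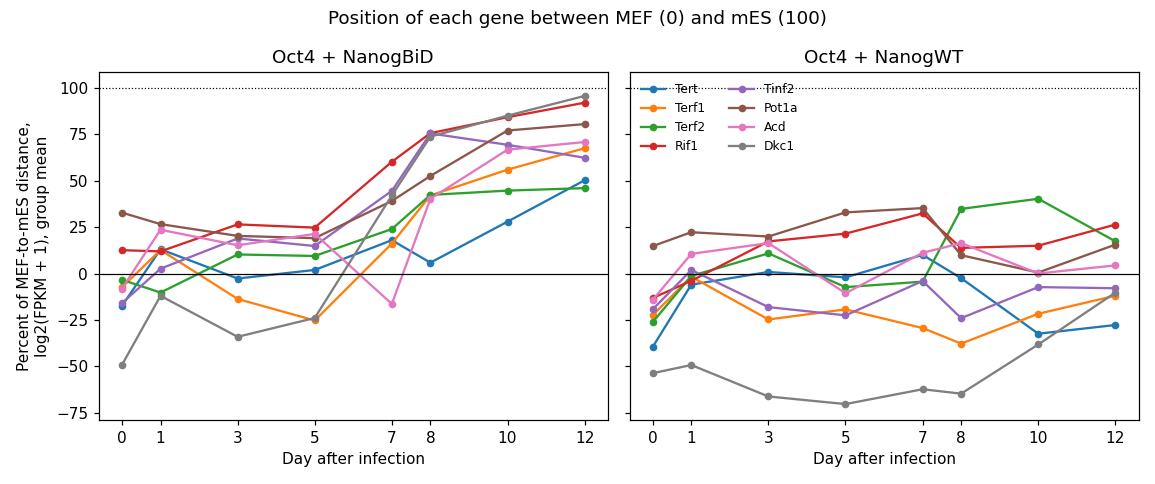
Position of 8 genes between the MEF mean (0%) and the mES library (100%) on the log2(FPKM + 1) scale, as group means by day for NanogBiD (left) and NanogWT (right). At D12 the NanogBiD lines lie between 46.0% and 95.6%, all above their D7 positions, and no NanogWT line is above 26.3%. The rise was not steady in every gene: Tinf2 with NanogBiD was at 75.4% at D8 (1 library) and at 62.3% at D12.

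Other genes of the telomere pathway were taken from 4 lists of 46 names in all, 45 of them tested in the time course (Rev7, an older name of the listed Mad2l2, was in neither table). Stn1 and its older name Obfc1 were both listed and tested there, so the time-course counts are of names and hold this gene under both. Between the combinations none of the 45 was called at D0 or D1, 1 was higher at D3 and at D5 (Mad2l2, a subunit of shieldin), 6 at D7, 19 at D10 and 14 at D12, and none was lower on any of these days. Of all 16842 genes tested, 210 were called higher at D3 and 539 at D5, so 1 of 45 does not stand out on those days. The shares of all genes called higher were 5.79%, 15.4% and 13.5% at D7, D10 and D12. Their median log2 difference at D12 was 0.76, beside 0.17 over all genes. At D12 5 of 14 telomerase assembly genes, 8 of 16 genes of the CST complex and of telomere replication, and 1 of 14 telomere chromatin and damage response genes were higher, and the last of these shares was below the 13.5% of all genes.

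The largest differences among the assembly genes were those of Ruvbl2 and Ruvbl1, paired ATPases that act in assembling telomerase with dyskerin. At D12 Ruvbl2 measured 54.5 and 62.2 FPKM with NanogBiD and 16.7 and 21.0 with NanogWT (log2 difference 1.58 ± 0.22, adjusted p = 7.88e-06), and Ruvbl1 measured 40.0 and 55.8 against 15.3 and 19.996 (1.38 ± 0.21, adjusted p = 1.66e-05). Among the replication genes they were those of Blm, a RecQ helicase, Dna2, a nuclease and helicase, Prim1, the primase catalytic subunit, and Ctc1, the large subunit of CST. Blm measured 14.1 and 15.4 FPKM against 2.05 and 3.22 (2.14 ± 0.19, adjusted p = 2.5e-08), and Dna2 9.43 and 13.6 against 1.37 and 2.36 (2.13 ± 0.24, adjusted p = 4.49e-07). Prim1 measured 22.9 and 29.8 FPKM against 5.76 and 6.75 (1.91 ± 0.24, adjusted p = 1.81e-06), and Ctc1 28.2 and 31.3 against 9.71 and 10.2 (1.49 ± 0.15, adjusted p = 1.29e-07). The single damage response gene called was Shld2, a subunit of shieldin, at 3.59 and 4.02 FPKM against 1.04 and 1.54 (1.08 ± 0.17, adjusted p = 3.05e-05). In all 7 genes the groups did not overlap, but the genes were named because they were called with large differences, so this adds nothing to the calls.

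The remaining shelterin subunit RAP1, coded by Terf2ip, measured 10.2 to 12.2 FPKM against 8.24 to 8.73, a log2 difference of 0.36 ± 0.13 that passed the adjusted p (0.0261) under the 2-fold limit. Tnks, a tankyrase of the poly(ADP-ribose) polymerase family, was higher in NanogWT at D12 (35.7 to 42.5 FPKM) than at D0 (7.26 to 18.8), and with Atm it was 1 of the 2 among the 45 genes called higher there, a smaller share than the 12.2% of all genes. Terc, the telomerase RNA, was listed at 0 in both NanogWT libraries of D0, at 0 and 0.293 FPKM in those of D12, at 1.34 and 2.25 with NanogBiD at D12 and at 0.173 in mES. It lacks a poly(A) tail. The labels name an mRNA library kit and the paper's methods another RNA-seq kit, so it is unknown whether such RNA was kept. These values can therefore not be read as a level of Terc, although it was 1 of the 5 assembly genes called at D12.

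Across the 34 libraries of the gene table, the 9 genes correlated with each other at 0.36 (Pot1b with Acd) to 0.92 (Terf1 with Dkc1) on the log2(FPKM + 1) scale. The genes whose values correlated most with each were, out of 16841 others, Mcm3 (Pearson r = 0.975), Mcm7 and Espl1 for Dkc1, Ccnf (0.962), Cdc25a and Orc1 for Terf1, Sin3a (0.977), Usp37 and Vkorc1l1 for Rif1, and Rfc2 (0.943), Rnps1 and Parp2 for Tinf2. For Pot1a they were Xrcc5 (0.936), Suz12 and Gm29758, for Acd Pias4 (0.888), Nudt21 and Atp5g2, for Terf2 Rmdn3 (0.880), Isoc2a and Med26, and for Tert Urb2 (0.865), Wdr59 and Ints3. Libraries of a day and combination share their cells' state, and from D8 their depth, so the correlations describe these libraries and have no p. The choice of partners depended on the measure: with Spearman rho in place of Pearson r, at most 1 of the 3 partners was the same for each of the 8 genes named. Pot1b is not given, since its group means spanned under 1 on the log2(FPKM + 1) scale.

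In the established iPSC, measured in the transcript table with the transcripts of a gene summed, 5 of the 8 genes tested were called higher than in MEF, against 21.9% of 13312 genes tested. The estimate is the mean of the 4 groups of lines and combinations minus MEF. Rif1 measured 29.0 to 41.3 FPKM (median 33.4, n = 12) against 2.98 and 3.07 in MEF, a log2 difference of 3.11 ± 0.12 (adjusted p = 4.80e-10). Terf1 measured 32.9 to 55.5 FPKM (median 48.6) against 5.34 and 6.42 (2.80 ± 0.15, adjusted p = 8.31e-09), and Dkc1 97.9 to 146 FPKM (median 110) against 15.3 and 23.1 (2.54 ± 0.16, adjusted p = 2.93e-08). Tinf2 measured 15.2 to 26.8 FPKM (median 22.1) against 10.4 and 5.79 (1.36 ± 0.18, adjusted p = 1.77e-05), and without MEF replicate 2 its log2 difference was 0.99, just under the limit. Tert measured 1.57 to 4.74 FPKM (median 3.67) against 0.971 and 1.10 (1.11 ± 0.20, adjusted p = 0.000293). In these 5 genes every iPSC library lay above both MEF libraries, as also in Terf2, Pot1a and Pot1b. How large a share of all genes did so was not computed.

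Terf2 (14.3 to 17.7 FPKM against 9.68 and 10.3, log2 difference 0.62 ± 0.10, adjusted p = 0.000155) and Pot1a (4.06 to 11.8 against 2.96 and 3.31, 0.95 ± 0.19, adjusted p = 0.000686) passed the adjusted p under the 2-fold limit, which made 7 of 8 at any size against 41.2% of all genes. Acd was the one that did not pass: its iPSC libraries measured 14.2 to 20.5 FPKM and lay between the MEF values of 21.0 and 11.6 (0.08 ± 0.18, adjusted p = 0.695). Pot1b, at 0.509 to 1.11 FPKM in iPSC and 0.319 and 0.262 in MEF, was not tested. Of the other telomere pathway genes, 42 were tested in this table, of which 20 were called higher in iPSC and none lower, beside the 21.9% of all genes called higher. Their median log2 difference was 0.87, beside 0.22 over all genes and 1.24 over the 8 genes.

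**Figure D4:**
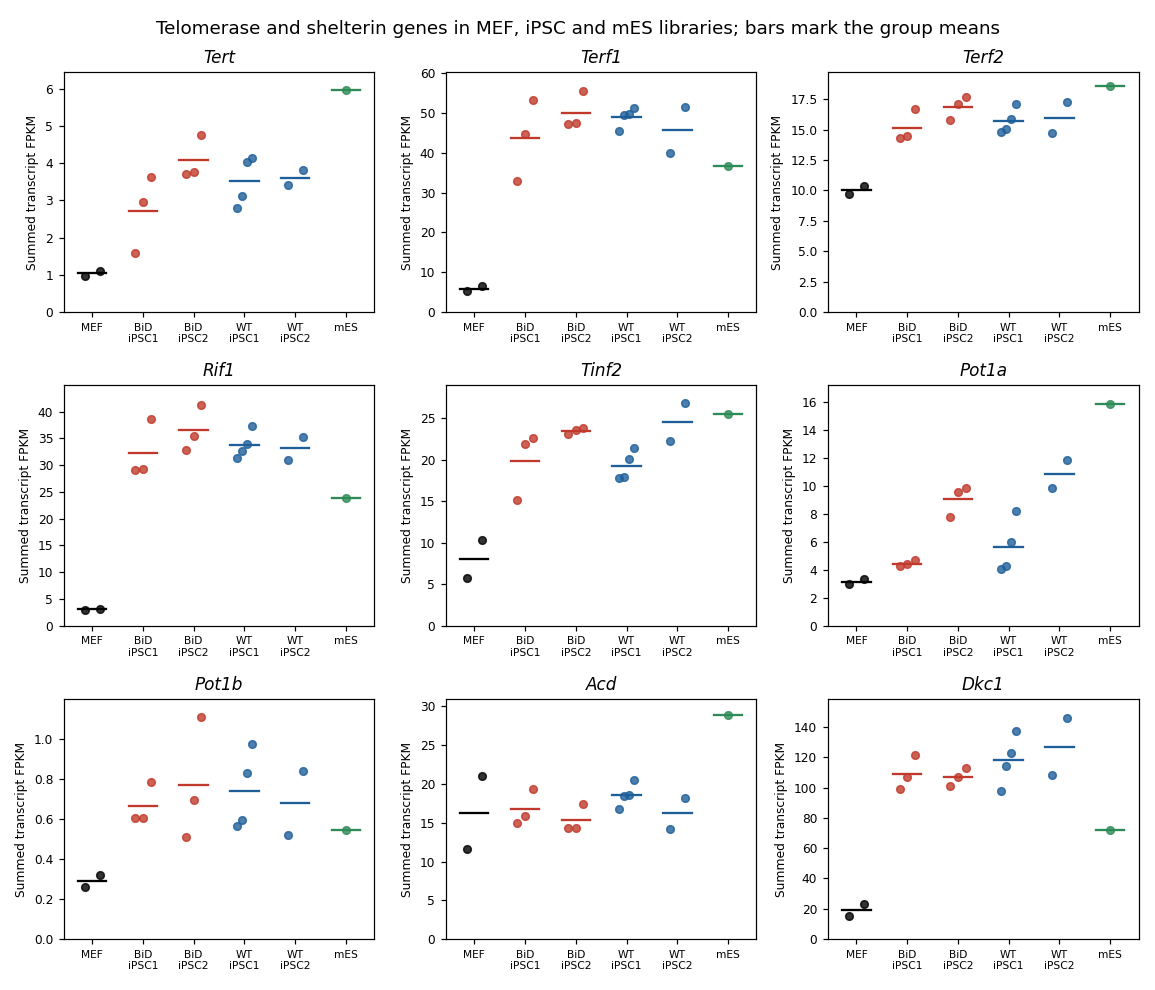
Summed transcript FPKM of the 9 genes in the 2 MEF libraries, the 12 iPSC libraries by combination and line, and the mES library, with points for libraries (placed by value within a group) and bars for means. Rif1, Dkc1 and Terf1 in iPSC are far above MEF, Acd is within the MEF range, and Pot1a is at 4.06 to 8.17 FPKM in iPSC1 and 7.78 to 11.8 in iPSC2.

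Between NanogBiD iPSC and NanogWT iPSC, with the line as a covariate, none of the 8 genes was called, and none of the 12456 genes tested was (0%), although 201 had an unadjusted p under 0.05. The means were 3.39 and 3.55 FPKM for Tert, 46.9 and 47.9 for Terf1, 34.4 and 33.5 for Rif1, 108 and 121 for Dkc1 and 6.75 and 7.35 for Pot1a, NanogBiD first, n = 6 each. The smallest unadjusted p among the 8 was that of Pot1a (0.121, adjusted p = 0.999). Pot1a differed more between lines than between combinations: NanogBiD iPSC1 measured 4.23, 4.66 and 4.41 FPKM and iPSC2 9.85, 9.53 and 7.78, while NanogWT iPSC1 measured 5.95, 8.17, 4.28 and 4.06 and iPSC2 11.8 and 9.84. The lines did not overlap within NanogBiD or within NanogWT, and this difference, seen in the values, was not tested. Tinf2 was split by line too. With NanogBiD it measured at most 22.6 FPKM in iPSC1 and at least 23.1 in iPSC2. With NanogWT it measured at most 21.4 FPKM in iPSC1 and at least 22.3 in iPSC2. The share of all genes with such a split was not computed.

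Set beside the 1 mES library of the same table, all 12 iPSC libraries lay above it for Rif1 (23.9 FPKM in mES) and Dkc1 (72.3) and 11 of 12 for Terf1 (36.8). None of the 12 reached mES for Tert (5.95), Terf2 (18.5), Pot1a (15.9) or Acd (28.9), and 1 did for Tinf2 (25.6). The iPSC mean was 0.44 times the mES value for Pot1a, 0.58 times for Tert and for Acd, 1.29 times for Terf1, 1.42 times for Rif1 and 1.59 times for Dkc1. Sample 9 of NanogBiD iPSC1 had a mean log2(FPKM + 1) of 5.32 over the 10 fibroblast markers, above the 1.14 to 4.08 of the other 11 iPSC libraries, and without it the same number of genes, 5, was called against MEF.

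The transcript table splits each gene into RefSeq models. The split of reads among overlapping models is StringTie's estimate, and a model listed at 0 can be a failed estimate. Tert had 8 models, of which 1 is a curated mRNA, and that model was listed at 0 in both MEF libraries, at 4.68 FPKM in mES and at 1.39 to 3.25 FPKM in 11 of the 12 iPSC libraries. The remaining one, sample 4 of NanogBiD iPSC1, was listed at 0 and had 1.16 FPKM on predicted mRNA models. In MEF 83.1% and 89.4% of the summed Tert value lay on predicted non-coding models (0.807 and 0.985 FPKM), and in mES 20.7% did (1.23 FPKM). In iPSC the non-coding share ran from 6.76% to 58.6%, with a median of 26.3%. No fold is given for the curated model, since it was listed at 0 in MEF.

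Pot1b was split the same way in all samples: its curated mRNA was listed at 0 in all 15 libraries, and 90.4% to 100% of its sum, at most 1.11 FPKM, lay on predicted non-coding models. Rif1 was carried by predicted mRNA models, with at least 81.3% of its sum in MEF and nearly all of it in iPSC and mES, and its curated mRNA was at most 0.574 FPKM. Dkc1 lay mainly on its curated mRNA, with 66.4% to 96.9% in iPSC, 81.8% and 93.5% in MEF and 97.1% in mES. Pot1a was divided between the curated mRNA (0 to 4.09 FPKM in iPSC, 1.05 and 1.45 in MEF, 7.53 in mES) and predicted models, and the curated share ranged from 0% to 84.2% among the iPSC libraries.

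**Figure D5:**
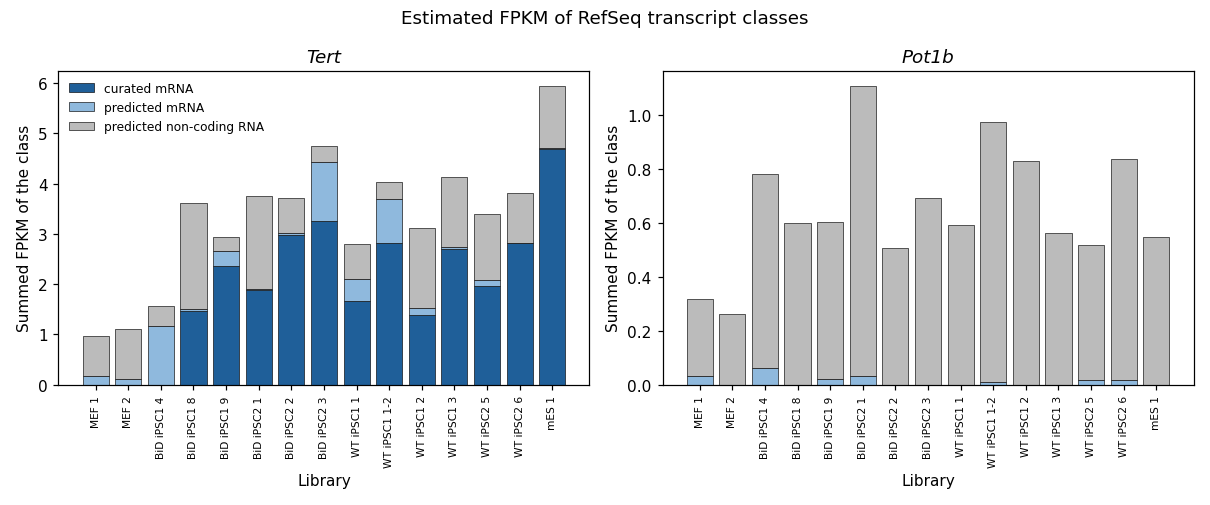
Summed FPKM (y axis, from 0) of the curated mRNA, predicted mRNA and predicted non-coding RefSeq models of Tert (left) and Pot1b (right) in each of the 15 libraries of the transcript table. The curated Tert mRNA is at 0 in the MEF bars and is 4.68 FPKM in mES, and the Pot1b bars are nearly all non-coding models.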

How the data were processed

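RNA-seq was made from bulk cultures, 46 libraries in all. Per the labels and the methods, the authors trimmed reads with Trim Galore 0.6.4, aligned them to mm10 with HISAT2 2.2.1 and assembled with StringTie 2.2.1, and they deposited FPKM for 37108 genes (34 libraries) and for 106520 transcripts (15 libraries, 35976 symbols). The annotation and the strand setting are not given in the sources used here. The tables were normalized separately, so every test stayed within a table. MEF and mES occur in both.

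The 9 genes and all other lists were chosen with earlier results of these data known. Transcript FPKM were summed by symbol. FPKM are not counts, so log2(FPKM + 1) was tested with limma 3.58.1 (R 4.3.3, moderated with a mean trend) over genes that reached 1 FPKM in 2 or more libraries (16842 in the time course, 12456 in iPSC, 13312 with MEF), after a check on simulated data. A call needed a Benjamini-Hochberg adjusted p under 0.05 over all genes tested and a log2 difference of at least 1. The time course was 1 model of 16 groups, and its contrasts included the interaction of combination and day. The iPSC model had line as a covariate. Groups came from the labels, and no column was left unmapped. Pathway members were named where they led their list by size, and the 3 genes most correlated with each member were named. Promoters are RefSeq entries (GRCm38.p6). Alternatives were a pseudocount of 0.1, no filter, a common total, quantile normalization, no fold limit, the compared groups alone, a replicate block, averaging samples 1 and 1-2 of NanogWT iPSC1 and leaving out libraries.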

Additional observations from a re-analysis of the deposited data

Results flagged for a closer look

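Tinf2 in sample 9 of NanogBiD iPSC1 measured 15.2 FPKM, below the other 5 NanogBiD iPSC libraries, with a gap to the nearest of them of 0.771 of the group's whole range. This was 1 of 27 gene and group combinations examined in this way, and chance alone gives about 1 in 20. The same library had the highest fibroblast marker mean of the 12 iPSC libraries (5.32 on the log2 scale), and its part in the Tinf2 value was not tested.

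The change from D0 differed between the combinations, by the interaction test, for Dkc1 at D7 (1.92 on the log2 scale) and at D12 (1.95), for Terf1 at D12 (1.55) and for Rif1 at D12 (1.08). For Rif1 the NanogWT libraries of D0 measured 1.17 and 3.60 FPKM, and without replicate 2 of them the value was 0.54 (adjusted p = 0.261).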

How the results depend on the processing

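Of 26 called differences of the 9 genes, 329 of 347 alternative values stayed past both limits, 18 did not and none turned sign. Of 52 differences past the adjusted p at any size, 581 of 663 alternative values passed too. For NanogBiD at D12 against D0, 6 genes were called with a pseudocount of 0.1, 6 with a common total and 8 with no fold limit, in place of 3. At D7 against D0 it was 1 with quantile normalization (Rif1 fell just under the limit, at 0.99) and 5 with no fold limit, in place of 2. For NanogWT at D12 against D0, 2 were called with a common total, 2 with no fold limit, 0 with quantile normalization and 0 with the compared groups alone, in place of 1, and 0 to 2 with single libraries left out. For NanogWT at D7 against D0, it was 2 with a pseudocount of 0.1, 3 with no fold limit, 0 with quantile normalization and 0 with the compared groups alone, in place of 1, and 0 to 1 with single libraries left out. With no fold limit, NanogBiD against NanogWT had 1 gene at D5 in place of 0, 8 at D10 and 8 at D12 in place of 4, and the D12 interaction 6 in place of 3. With single libraries left out, 0 to 1 gene was called at D0 and at D5. With quantile normalization the D7 difference turned to -0.0084 for Tert and -0.0142 for Pot1a, and with single D7 libraries left out Pot1a ran from -0.104 to 0.253. The Rif1 interaction at D12 was lost with a pseudocount of 0.1 (0.98, adjusted p = 0.157), no filter (adjusted p = 0.107), a common total (0.94, adjusted p = 0.161) and the compared groups alone (adjusted p = 0.195). The D12 interactions of Tert and Tinf2 no longer passed the adjusted p with a pseudocount of 0.1 (0.0585 and 0.0612) or a common total (0.0618 and 0.0591). With the compared groups alone Tert (0.0583), Tinf2 (0.188) and Pot1a (0.0576) did not pass either. Tert was also lost with quantile normalization (0.41, adjusted p = 0.143), and Tinf2 with no filter (adjusted p = 0.0844). The cause of these losses was not tested. Quantile normalization lowered the share of higher calls over all genes from 70.7% to 51% (NanogBiD, D12 against D0), from 67.3% to 49.6% (NanogBiD, D7), from 75.5% to 57.7% (NanogWT, D12) and from 67.8% to 55.6% (NanogWT, D7).

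Replicate numbers were shared between the combinations, but nothing ties equal numbers to 1 culture, and the correlation of same-numbered deviations was between -0.0647 and 0.394 over the 7 days. With the number as a replicate block, no count of called genes changed: 4 of 9 at D10, 4 at D12, 2 at D7 and 0 at D0. Leaving out each iPSC library in turn, other than sample 9 of NanogBiD iPSC1, was chosen after seeing the data. A gene near 1 FPKM, such as Tert or Pot1b, rests on few reads, and its log2 difference moves with the pseudocount.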
